A study of Mus musculus with 6 samples.

Results

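The 10 genes that mark lipid-associated macrophages, namely Gpnmb, Trem2, Cd9, Cd63, Cd68, Lgals3, Fabp5, Ctsd, Lyz2 and Mmp12, were followed through RNA sequencing of injured mouse liver. The set holds 10 genes of the 47729 in the count files. Its members were named by gene symbol, with earlier results of these data known, and matched to the identifiers of the count files. All 10 passed the filter on low counts. The samples were livers of C57BL/6 mice, 3 with knockdown of the transcription factor gene Atoh8 (shAtoh8) and 3 controls (shNC, given as WT in the labels). All mice had eaten 0.1% DDC for 17 days, a feeding model in which bile flow is blocked and ducts and liver cells are damaged. The design text and the cell type label name hepatocytes, while the source is given as liver. The sources used here do not give the delivery of the knockdown, the age and sex of the mice, or whether each library is a separate animal. The p-values therefore cover the spread between libraries, part of which may be technical.

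Lipid-associated macrophages are macrophages that gather where cells die and lipid accumulates, and they are known from fat tissue, fatty liver and fibrotic liver scars. The receptor TREM2 binds lipids and lipoproteins and signals through the adaptor TYROBP to drive uptake and breakdown of debris. The programme joins this receptor with a lysosomal and membrane set (GPNMB, CD68, CD63, CD9, cathepsin D), lipid carriage (FABP5) and secreted or lectin proteins (galectin-3, lysozyme, the elastase MMP12). Several of these genes are also used by other cells: Ctsd and Cd63 in nearly all cells with lysosomes, and Cd9, Lgals3 and Fabp5 in many epithelia.

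The markers did not move as a single block. Gpnmb, Trem2, Cd68, Lgals3, Fabp5, Lyz2 and Mmp12 were higher in every shAtoh8 library than in shNC replicates 2 and 3, but shNC replicate 1 lay at or near the shAtoh8 level for most of them. Ctsd had the same order with a smaller gap to those controls, and its highest value by far in shNC replicate 1. Cd63 stood lower in all 3 shAtoh8 libraries than in any shNC library, and Cd9 overlapped between the groups. With all 6 libraries, edgeR called 0 of 10 markers at an adjusted p under 0.05 (quasi-likelihood test, Benjamini-Hochberg over 13767 genes), where 0.741% of all genes were called higher, 0.123% lower and 0.864% either way. At an unadjusted p under 0.05 there were 3 markers (Cd63, Lyz2 and Mmp12), beside 2002 of the 13767 genes.

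The count of calls turned on shNC replicate 1. With that library left out, 7 of 10 markers rose and 1 fell by edgeR, where 16.5% of 14222 genes were called higher, 16.1% lower and 32.6% either way. DESeq2 on all 6 libraries called 1 marker, Cd63, and gave no adjusted p for Gpnmb; it called 4.62% of all genes higher, 2.16% lower and 6.78% either way. Limma-voom with quality weights called 7 markers higher and 1 lower, where 18.7% of all genes were called higher, 18.2% lower and 37% either way. An edgeR fit with an offset for GC content and transcript length, chosen after seeing the data, called 0 markers (3 at an unadjusted p under 0.05, beside 3060 of 13729 genes), where 2.6% of all genes were called higher, 1.17% lower and 3.77% either way. The same offset without shNC replicate 1 called 7 markers higher and 1 lower, where 15% of all genes were called higher, 14.5% lower and 29.5% either way.

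The library that parts these results, shNC replicate 1, stood apart as a whole. Over the tested genes its log2 CPM (read counts scaled to library size) correlated with shNC replicates 2 and 3 at Pearson's r of 0.916 and 0.907, while those 2 correlated at 0.984. Its share of mitochondrial reads was 2.43%, and that of the other 5 libraries 3.48% to 6.94%. Its difference from shNC replicates 2 and 3 followed transcript GC content over 13729 genes (Spearman 0.644), and the difference of the shAtoh8 mean from the same 2 controls did so less (0.355). The markers had a median GC content of 50.3%, and all tested genes one of 49.5%. The part of GC content in the marker values was not tested beyond that offset. Atoh8 itself stood at 10.2, 9.82 and 5.64 CPM in shAtoh8 replicates 1 to 3, against 63.7, 16.8 and 16.4 CPM in shNC replicates 1 to 3 (log2 fold change -1.92, SE 0.58, edgeR adjusted p = 0.197). Its log2 fold change without shNC replicate 1 was -0.95 (SE 0.23, edgeR adjusted p = 0.0115). Reads in genes ranged from 36915731 to 37969644 in shAtoh8 libraries and from 31912058 to 36970491 in shNC libraries. The marker counts lay between 76 reads (Trem2) and 33328 reads (Ctsd) per library. Although the samples are labelled as hepatocytes, all 16 general macrophage genes were detected and tested, among them Adgre1 at 16.6 to 23.2 CPM in shAtoh8 livers and 12.99 to 17.3 CPM in shNC livers (edgeR adjusted p = 0.486). In such bulk RNA, more cells of a type and more RNA per cell cannot be told apart.

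**Figure D1:**
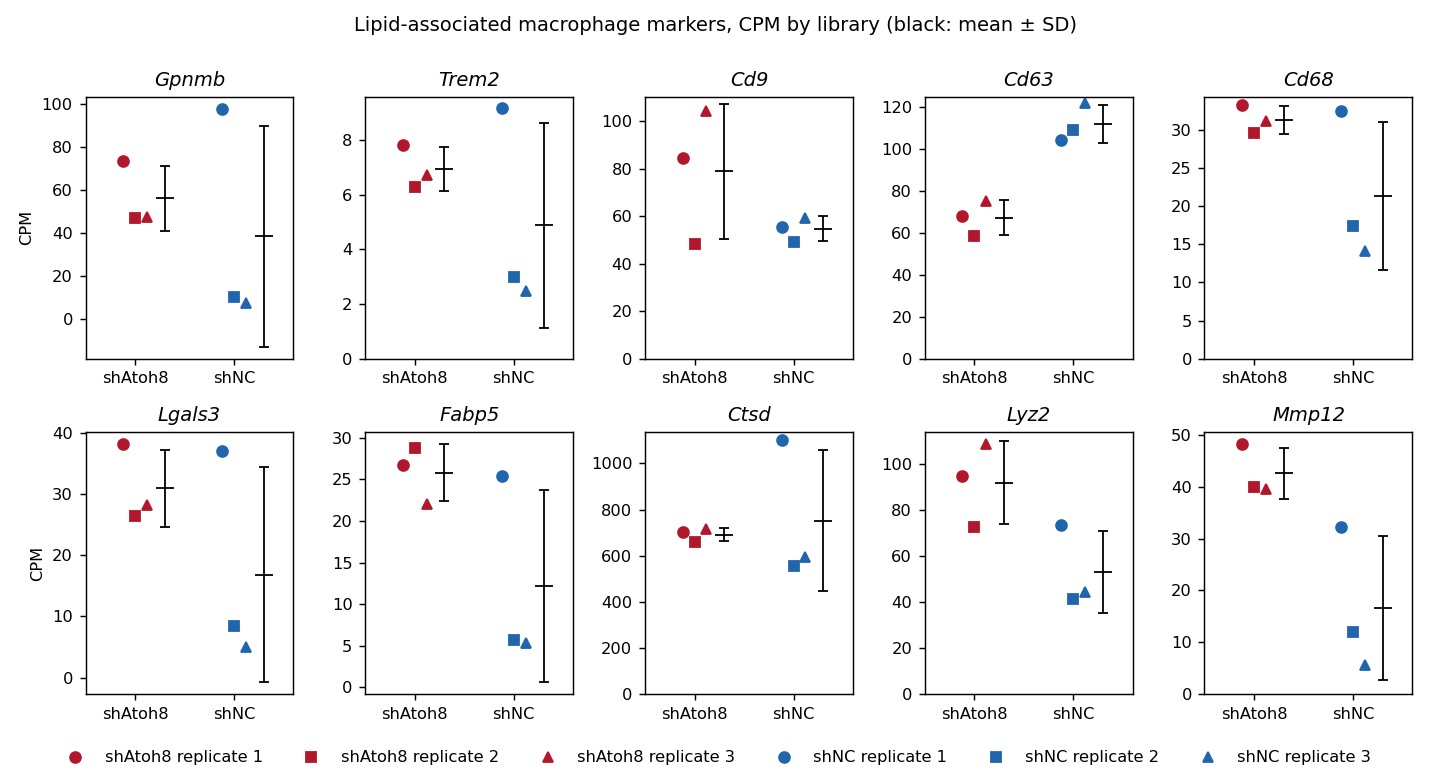
CPM of the 10 markers in each library, shAtoh8 at left and shNC at right, with the symbol shape giving the replicate and the black bar the mean ± SD of 3 libraries. For Gpnmb, Trem2 and Ctsd the shNC replicate 1 point lies above all shAtoh8 points, and for Cd63 all 3 shNC points do.

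Among the receptors and membrane markers, Gpnmb spanned the widest range. Gpnmb (ENSMUSG00000029816, GRCm38 chromosome 6, 49036546 to 49070929, plus strand) encodes a transmembrane glycoprotein of lysosomes and phagosomes. It stood at 73.5, 47.0 and 47.6 CPM in shAtoh8 replicates 1 to 3, against 97.9, 10.1 and 7.37 CPM in shNC replicates 1 to 3. The groups overlapped because of shNC replicate 1 alone, which was the highest of the 6 libraries, 11.2 times the mean of the other 2 controls. The shAtoh8 mean was 6.41 times that of shNC replicates 2 and 3. With all 6 libraries the log2 fold change was 0.54 (SE 0.91, edgeR adjusted p = 0.826). Without shNC replicate 1 Gpnmb rose, with a log2 fold change of 2.69 (SE 0.24, edgeR adjusted p = 0.00016). Without shNC replicate 2 the log2 fold change was 0.085 (edgeR adjusted p = 0.982), and without shNC replicate 3 it was 0.049 (edgeR adjusted p = 0.992). Leaving out either of those controls likewise lowered the log2 fold changes of Trem2 (0.25 and 0.19), Cd68 (0.43 and 0.33) and Lgals3 (0.56 and 0.44). The same held for Fabp5 (0.74 and 0.73), Lyz2 (0.64 and 0.68) and Mmp12 (1.17 and 0.94). Both fits called 0 of 10 markers, beside 0 of 14130 and 21 of 14142 genes in the same order.

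Trem2 (ENSMUSG00000023992, chromosome 17, 48346401 to 48354147, plus strand), the lipid receptor, had the same order of libraries at a much lower level. Its values were 7.85, 6.29 and 6.73 CPM in shAtoh8 livers and 9.20, 2.98 and 2.47 CPM in shNC livers. Again shNC replicate 1 was the highest library and the other controls the lowest. The log2 fold change was 0.51 with all libraries (SE 0.50, edgeR adjusted p = 0.700) and 1.37 without shNC replicate 1 (SE 0.23, edgeR adjusted p = 0.002).

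Cd68 (ENSMUSG00000018774, chromosome 11, 69664213 to 69666153, minus strand) encodes a lysosomal glycoprotein widely used to stain macrophages. It stood at 33.4, 29.7 and 31.2 CPM in shAtoh8 livers and at 32.5, 17.5 and 14.2 CPM in shNC livers. The shNC replicate 1 value fell inside the shAtoh8 range, and the other controls below it. Its log2 fold change was 0.56 (SE 0.32, edgeR adjusted p = 0.490), and 1.00 without shNC replicate 1 (SE 0.15, edgeR adjusted p = 0.001).

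The tetraspanins Cd9 and Cd63, which organise membrane and vesicle proteins, went different ways. Cd63 (ENSMUSG00000025351, chromosome 10, 128900989 to 128912822, plus strand) is a marker of late endosomes and exosomes. It stood at 68.1, 58.5 and 75.3 CPM in shAtoh8 livers, against 104, 109 and 122 CPM in shNC livers. This was the only marker whose shAtoh8 values all lay below the controls, a pattern found in 10% of all tested genes, and shNC replicate 1 sat with the other controls. The log2 fold change was -0.73 (SE 0.18) and missed the threshold with all 6 libraries by edgeR (unadjusted p = 0.0043, adjusted p = 0.135), though DESeq2 called it (adjusted p = 0.0076). Without shNC replicate 1 Cd63 fell, with a log2 fold change of -0.77 (SE 0.15, edgeR adjusted p = 0.0037), a similar size.

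Cd9 (ENSMUSG00000030342, chromosome 6, 125460266 to 125494791, minus strand) stood at 84.5, 48.2 and 104 CPM in shAtoh8 livers and at 55.6, 49.1 and 59.4 CPM in shNC livers. Here the shAtoh8 libraries themselves were spread, with replicate 2 below all 3 controls. The difference did not exceed that spread, with log2 fold changes of 0.53 with all libraries (SE 0.29, edgeR adjusted p = 0.465) and 0.56 without shNC replicate 1 (SE 0.27, edgeR adjusted p = 0.140).

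The lectin, the lipid carrier and the secreted protease varied together. Lgals3 (ENSMUSG00000050335, chromosome 14, 47367751 to 47386160, plus strand) encodes galectin-3, a lectin that binds damaged lysosomes and glycoproteins. It stood at 38.2, 26.5 and 28.2 CPM in shAtoh8 livers and at 37.0, 8.51 and 4.97 CPM in shNC livers. Replicate 1 of the controls lay within the shAtoh8 range, at 5.49 times the mean of the other controls. The log2 fold change was 0.88 with all libraries (SE 0.68, edgeR adjusted p = 0.616) and 2.21 without shNC replicate 1 (SE 0.25, edgeR adjusted p = 0.00036).

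Fabp5 (ENSMUSG00000027533, chromosome 3, 10012548 to 10016607, plus strand), a fatty acid carrier of macrophages and epithelia, stood at 26.7, 28.7 and 22.0 CPM in shAtoh8 livers. In shNC livers it stood at 25.5, 5.64 and 5.36 CPM. The first of these again fell inside the shAtoh8 range. Its log2 fold change was 1.09 (SE 0.60, edgeR adjusted p = 0.468), and 2.24 without shNC replicate 1 (SE 0.17, edgeR adjusted p = 0.00011). The related Fabp4, the fatty acid carrier of fat cells and some macrophages, stood at 4.05, 4.13 and 6.43 CPM in shAtoh8 livers and at 3.54, 3.47 and 3.38 CPM in shNC livers, with the groups apart and no raised value in shNC replicate 1 (log2 fold change 0.49, SE 0.28, edgeR adjusted p = 0.483).

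Mmp12 (ENSMUSG00000049723, chromosome 9, 7344381 to 7369499, plus strand) encodes macrophage elastase, which cleaves elastin and other matrix proteins. It stood at 48.3, 40.0 and 39.6 CPM in shAtoh8 livers, against 32.3, 12.0 and 5.55 CPM in shNC livers. Mmp12 was the only marker whose shAtoh8 values all lay above every control, a pattern found in 13% of all tested genes. Even so, shNC replicate 1 lay nearer to the shAtoh8 libraries than to the other controls. The log2 fold change was 1.36 (SE 0.57), with an unadjusted p of 0.0465 and an adjusted p of 0.334 by edgeR. With the GC and length offset it was 0.53 (SE 0.95, edgeR adjusted p = 0.779). Without shNC replicate 1 it was 2.29 (SE 0.28, edgeR adjusted p = 0.00042).

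The lysosomal protease and lysozyme completed the set. Ctsd (ENSMUSG00000007891, chromosome 7, 142375911 to 142388038, minus strand) encodes cathepsin D, an aspartic protease of lysosomes. It shares 808 exonic bases with the annotated gene Gm49369, which is not among the counted genes. It stood at 702, 658 and 714 CPM in shAtoh8 livers and at 1103, 555 and 596 CPM in shNC livers. Its shNC replicate 1 value lay far above every other library, while shAtoh8 exceeded the remaining controls by 1.20 times. The log2 fold change was -0.12 with all libraries (SE 0.29, edgeR adjusted p = 0.887) and 0.28 without shNC replicate 1 (SE 0.15, edgeR adjusted p = 0.172), so its sign rested on that library and it passed in neither fit.

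Lyz2 (ENSMUSG00000069516, chromosome 10, 117277331 to 117282321, minus strand) encodes the lysozyme of macrophages and other myeloid cells. It stood at 94.7, 72.4 and 108.5 CPM in shAtoh8 livers and at 73.4, 41.3 and 44.4 CPM in shNC livers. The groups overlapped by a narrow margin, shNC replicate 1 lying just above shAtoh8 replicate 2. The log2 fold change was 0.79 (SE 0.28), with an unadjusted p of 0.0245 and an adjusted p of 0.259 by edgeR, and 1.12 without shNC replicate 1 (SE 0.18, edgeR adjusted p = 0.0016). Reads of the near-identical Lyz1 were few, 2 to 17 per library, so the Lyz2 values can hold few reads of that gene.

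**Figure D2:**
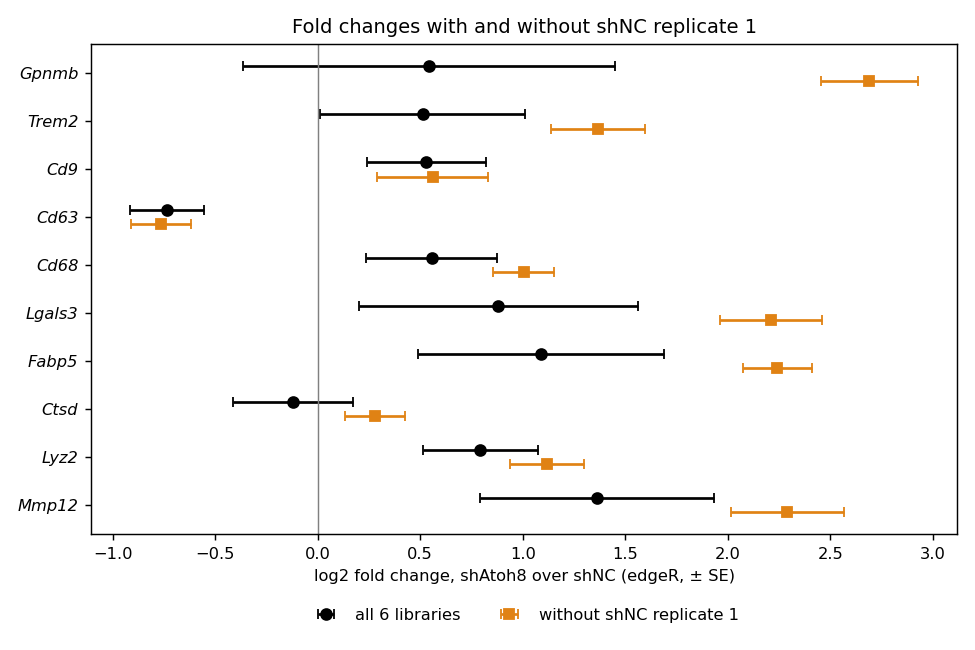
Log2 fold change of each marker, shAtoh8 over shNC, by edgeR with its SE, from all 6 libraries (black circles) and without shNC replicate 1 (orange squares). Gpnmb, Lgals3, Fabp5 and Mmp12 lie between 0.54 and 1.36 with all libraries and between 2.21 and 2.69 without that library, whereas Cd63 lies near -0.75 in both.

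Compared on their profiles over the 6 libraries, each centred on its own mean log2 CPM, the markers differed in how far and which way they swung. The root mean square difference between profiles was 0.27 for Lgals3 and Mmp12, 0.30 for Lgals3 and Fabp5 and 0.35 for Gpnmb and Lgals3. Cd68 lay 0.23 from Lyz2 and 0.24 from Trem2, with a smaller swing than those 4 genes, and Cd9 lay 0.35 from Lyz2. The marker nearest to Cd63 was Ctsd, at 0.51. The greatest distance, 1.67, was between Gpnmb and Cd63. Against the shAtoh8 range, shNC replicate 1 lay above it for 4 markers (Gpnmb, Trem2, Cd63, Ctsd), within it for 5 and below it for Mmp12. Replicates 2 and 3 of the controls each lay below that range for 8 markers, inside it for Cd9 and above it for Cd63.

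**Figure D3:**
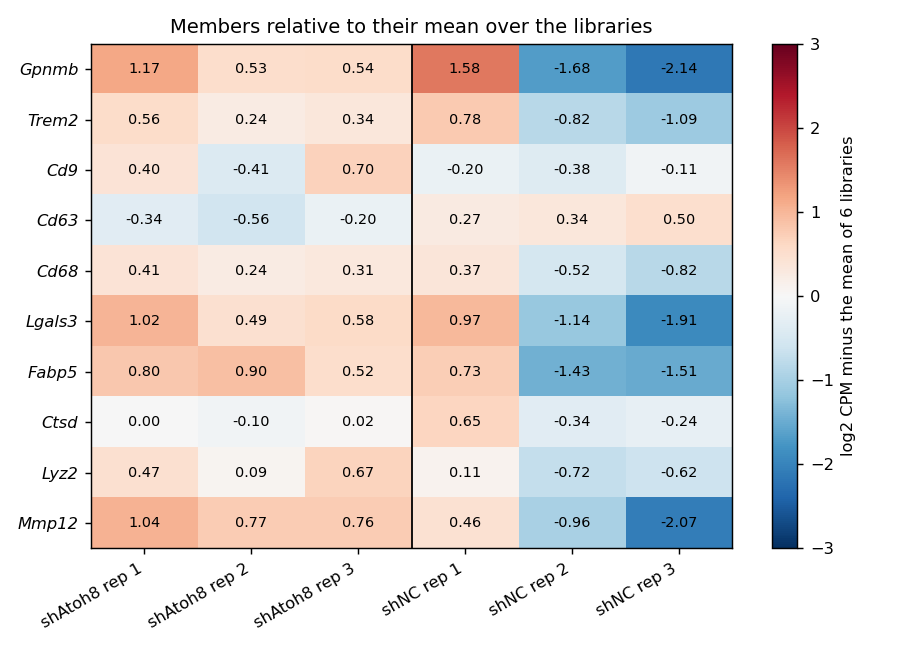
Log2 CPM of each marker minus its mean over the 6 libraries, shAtoh8 at left of the line and shNC at right, red above and blue below the mean. The shNC replicate 1 column is above the mean for 9 markers and below it for Cd9, whereas shNC replicates 2 and 3 are above it for Cd63 only.

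Genes outside the set came closer still to some profiles. Among the 11780 tested genes whose mean reached 1 CPM, the 5 nearest to Trem2 were Tnfrsf12a, Laptm5, Fam234a, Cerk and Myo1f, at root mean square differences of 0.07 to 0.12. Tnfrsf12a, which encodes the TWEAK receptor, stood at 79.6, 56.6 and 59.7 CPM in shAtoh8 livers and at 87.5, 29.97 and 23.2 CPM in shNC livers. Laptm5, a lysosomal membrane protein of blood cells, stood at 27.9, 26.9 and 27.7 CPM in shAtoh8 livers and at 33.2, 12.5 and 10.2 CPM in shNC livers. Both repeat the Trem2 order, with shNC replicate 1 highest. The 5 nearest to Gpnmb were Rab11fip5, Loxl1, Sh3pxd2b, Ltbp3 and Slc7a1, less close at 0.28 to 0.42. This likeness rests on 6 libraries, of which shNC replicate 1 differed from the other controls over many genes.

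Levels per transcript length were compared on the FPKM scale (fragments per kilobase of transcript, scaled to library size) of the authors' table. Ctsd was the most abundant marker in all 6 libraries, at 343 ± 20.5 FPKM in shAtoh8 livers and 369 ± 147 FPKM in shNC livers (SD, n = 3 each). In shAtoh8 livers Cd9, Cd63 and Lyz2 followed at 104 ± 36.9, 96.2 ± 12.3 and 86.7 ± 16.3 FPKM (SD, n = 3), an order whose neighbours did not differ beyond their spread. A step lower came Lgals3, Mmp12, Fabp5 and Cd68, at 36.3 ± 7.19, 35.9 ± 5.84, 32.5 ± 4.77 and 29.1 ± 2.37 FPKM (SD, n = 3), again overlapping each other. Gpnmb at 17.5 ± 5.42 FPKM and Trem2 at 8.70 ± 0.98 FPKM (SD, n = 3) closed the order, each below all values of the gene before it. These steps depend on the length used. Per union exon length of the annotation, the shAtoh8 mean of Cd63 lay below that of Cd68, and that of Gpnmb above those of Fabp5 and Mmp12. In shNC livers the order below Ctsd was Cd63 at 159 ± 8.86, Cd9 at 71.7 ± 5.91 and Lyz2 at 50.8 ± 17.5 FPKM (SD, n = 3). The next 4 overlapped widely, with Lgals3 at 19.9 ± 20.7, Cd68 at 19.5 ± 8.92, Mmp12 at 15.4 ± 13.2 and Fabp5 at 15.3 ± 14.6 FPKM (SD, n = 3). Gpnmb at 12.9 ± 17.4 and Trem2 at 5.69 ± 4.19 FPKM (SD, n = 3) came last, and shNC replicate 1 was the highest control for all 6. Gpnmb ranked 6 of 10 in shNC replicate 1 and 10 in shNC replicates 2 and 3, while Cd68 ranked 9 and 5 in the same libraries.

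**Figure D4:**
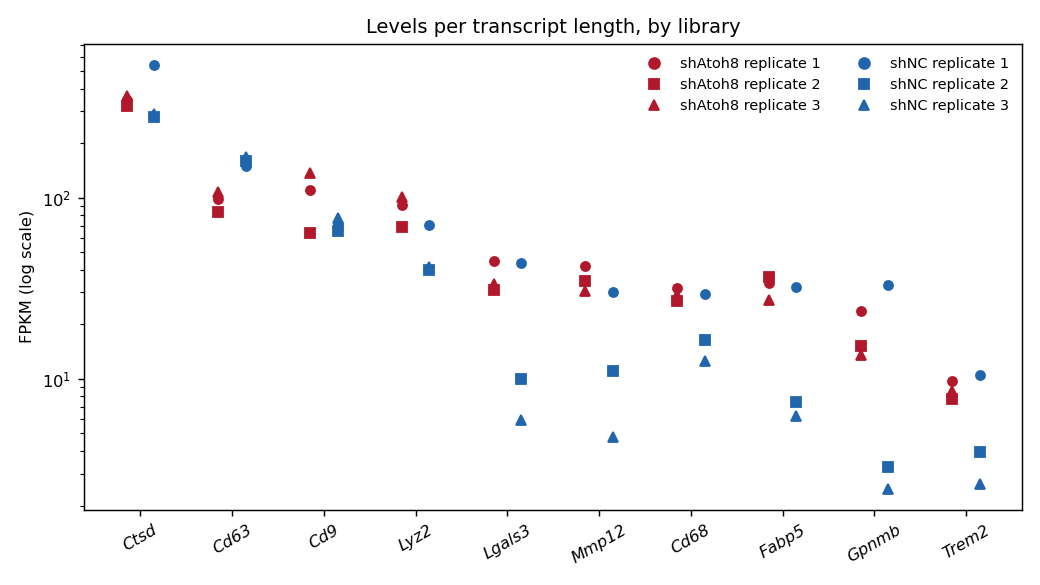
FPKM of each marker in each library on a log axis, ordered by the mean over 6 libraries, shAtoh8 in red at left and shNC in blue at right of each tick. Ctsd lies above all others and Trem2 reaches no more than 10.5, with the shNC points of Lgals3, Mmp12, Fabp5 and Gpnmb split between replicate 1 and the other controls.

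Relative to general macrophage genes, a part of the markers still differed between libraries. The mean log2 CPM of 16 such genes (among them Adgre1, Csf1r, Cd14 and the C1q genes) was 3.91, 3.99 and 4.07 in shAtoh8 livers and 3.70, 3.39 and 3.11 in shNC livers, so the groups did not overlap. The gap to shNC replicate 1 was narrow and rested in part on Ptprc and Cybb, both lowest in that library. Ptprc stood at 0.53 CPM there, against 3.78 to 5.97 CPM in the other libraries. Cybb stood at 13.9 CPM, against 21.7 to 58.9 CPM. The mean without them was not computed. Against that mean Gpnmb had log2 differences of 1.5 to 2.29 in shAtoh8 livers and of 2.91, -0.039 and -0.21 in shNC livers. For Lgals3 the log2 differences were 1.35, 0.74 and 0.75 in shAtoh8 livers and 1.51, -0.29 and -0.78 in shNC livers. Both differences were much higher in shNC replicate 1 than in the other controls. For Cd68 the log2 differences lay close together, 0.89 to 1.15 in shAtoh8 livers and 0.72 to 1.32 in shNC livers. Those of Cd63 were 1.88 to 2.18 in shAtoh8 livers and 3.00 to 3.82 in shNC livers, and those of Ctsd 5.37 to 5.55 in shAtoh8 livers and 5.73 to 6.41 in shNC livers, both with no overlap. In CPM Ctsd did overlap, at 702, 658 and 714 in shAtoh8 livers and 1103, 555 and 596 in shNC livers. Its separation here appeared only against the general macrophage mean, which was lower in every shNC library. As Ctsd and Cd63 are used by nearly all cells with lysosomes, these values do not give their level per macrophage. The differences are descriptions and were given no test.

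**Figure D5:**
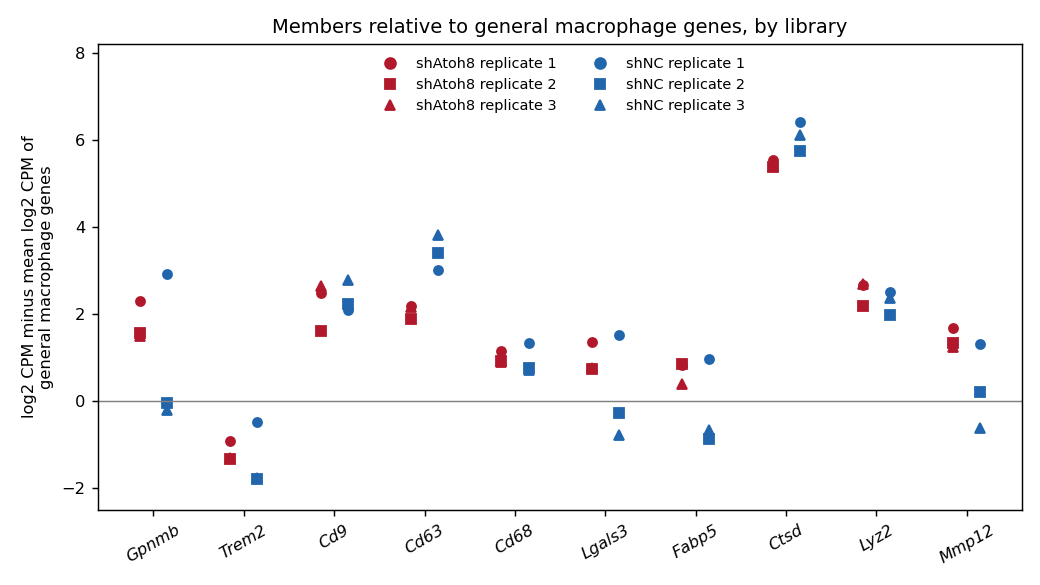
Log2 CPM of each marker minus the mean log2 CPM of 16 general macrophage genes in the same library, shAtoh8 in red at left and shNC in blue at right. Cd68 and Lyz2 span less than 1 unit, and Cd63 and Ctsd separate the groups. Gpnmb, Trem2, Lgals3, Fabp5, Mmp12 and, by a small gap, Cd68 separate shNC replicates 2 and 3 from the other 4 libraries.

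Other genes of the same programme held 2 calls. Of 22 further genes described in lipid-associated or scar-associated macrophages 21 were tested, and 2 rose and 0 fell with all 6 libraries by edgeR. Of all genes tested in that fit, 0.741% were called higher and 0.123% lower. Spp1, which encodes osteopontin and is also a bile duct gene, stood at 539, 322 and 527 CPM in shAtoh8 livers and at 30.7, 37.8 and 40.8 CPM in shNC livers (log2 fold change 3.67, SE 0.28, edgeR adjusted p = 0.0099). Plin2, which coats lipid droplets in hepatocytes and macrophages, stood at 401, 443 and 500 CPM in shAtoh8 livers and at 188, 139 and 132 CPM in shNC livers (log2 fold change 1.55, SE 0.21, edgeR adjusted p = 0.0328). In neither gene did shNC replicate 1 come near the shAtoh8 level, unlike Gpnmb or Lgals3. Of the 21 genes, 5 had every shAtoh8 value above every control, beside 13% of all tested genes. In Ctsz and Apoe every shAtoh8 value lay below every control, beside 10% of all tested genes. Apoe stood at 18566, 21101 and 12846 CPM in shAtoh8 livers and at 40875, 24213 and 24793 CPM in shNC livers (log2 fold change -0.78, SE 0.34, edgeR adjusted p = 0.350). The median log2 fold change was 0.34 over these 21 genes, 0.55 over the 10 markers and -0.05 over all genes tested. Without shNC replicate 1 it was 0.52, 1.24 and 0.01 in the same order, and 10 of the 21 genes rose and 1 fell. Of all genes tested without that library, 16.5% were called higher and 16.1% lower. The 2 calls depended on which library was left out. Leaving out shAtoh8 replicate 1, shAtoh8 replicate 3 or shNC replicate 2 left 0 calls in this list and 0 over all genes. Leaving out shAtoh8 replicate 2 or shNC replicate 3 left 1, beside 10 and 21 calls over all genes.

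The signalling and lysosomal partners of the markers held no call with all libraries, where 0.864% of all genes were called. Of 7 TREM2 adaptor, signalling and shedding genes 6 were tested and 0 passed by edgeR. Tyrobp, the adaptor of TREM2, stood at 9.42, 10.6 and 11.5 CPM in shAtoh8 livers and at 11.6, 6.82 and 4.03 CPM in shNC livers (edgeR adjusted p = 0.611), again with shNC replicate 1 at the top. Plcg2, a phospholipase downstream of TREM2, stood at 2.59 to 3.21 CPM in shAtoh8 livers and 1.75 to 1.92 CPM in shNC livers (edgeR adjusted p = 0.313). Of these 6, 3 rose without shNC replicate 1, where 16.5% of all genes were called higher. Of 27 lysosomal genes 0 passed, with a median log2 fold change of -0.13. Ctsz, a cathepsin, stood at 305, 288 and 303 CPM in shAtoh8 livers and at 535, 410 and 454 CPM in shNC livers (edgeR adjusted p = 0.176), while the cathepsin gene Ctss of antigen-presenting cells stood at 54.2, 45.8 and 55.6 CPM in shAtoh8 livers and at 47.5, 30.5 and 26.9 CPM in shNC livers (edgeR adjusted p = 0.369). Without shNC replicate 1, 4 of the 27 lysosomal genes rose and 3 fell. Neither share was above that of all genes, of which 16.5% were called higher and 16.1% lower. Mitf and Tfeb, transcription factors known to drive lysosomal genes, stood at 2.88 to 4.03 and 3.73 to 7.995 CPM in shAtoh8 livers and at 1.26 to 5.50 and 4.44 to 12.4 CPM in shNC livers, with overlapping groups (edgeR adjusted p = 0.923 and 0.854). Of the 10 transcription factors, lipid-sensing receptors and efflux genes 0 passed. Pparg, a lipid-sensing receptor, stood at 17.7, 14.8 and 18.3 CPM in shAtoh8 livers and 14.7, 10.8 and 8.86 CPM in shNC livers (edgeR adjusted p = 0.355). The cholesterol exporter gene Abcg1 stood at 14.5, 11.9 and 12.3 CPM in shAtoh8 livers and 12.1, 7.31 and 4.16 CPM in shNC livers (edgeR adjusted p = 0.450).

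Markers of other cells varied beside the set. General macrophage genes summed to 516 to 629 CPM in shAtoh8 livers and 326 to 493 CPM in shNC livers. Mpeg1, whose groups lay apart, was the largest part of these sums in every library. Of the 16 genes, 3 had every shAtoh8 value above every control, a pattern found in 13% of all tested genes. With all libraries 0 of 16 passed edgeR, where 0.864% of all genes were called. Without shNC replicate 1, 10 were higher and 0 lower, where 16.5% of all genes were called higher and 16.1% lower. Ptprc, Cybb and Mertk went the other way in that fit without passing, with log2 fold changes of -0.39, -0.55 and -0.21. Mpeg1, a pore-forming protein of macrophages, stood at 221, 180 and 251 CPM in shAtoh8 livers and at 112, 97.6 and 88.3 CPM in shNC livers (edgeR adjusted p = 0.0606), and here shNC replicate 1 stayed below every shAtoh8 library. Aif1, a calcium-binding protein of macrophages, stood at 1.48 to 2.12 CPM in shAtoh8 livers and 0.779 to 1.18 CPM in shNC livers (edgeR adjusted p = 0.361). Kupffer cell markers summed to 751 to 873 CPM in shAtoh8 livers and 697 to 849 CPM in shNC livers, and 0 of 10 passed with all libraries. Leaving out shNC replicate 1, 5 of them rose and 1 fell, beside the 16.5% and 16.1% of all genes. Clec4f, a lectin of resident Kupffer cells, stood at 68.1, 71.9 and 91.3 CPM in shAtoh8 livers and 63.5, 50.1 and 52.7 CPM in shNC livers (edgeR adjusted p = 0.335), and Timd4 at 4.24 to 6.08 CPM in shAtoh8 livers and 2.40 to 3.72 CPM in shNC livers (edgeR adjusted p = 0.330). The scavenger receptor gene Cd163 lay lower, at 7.05 to 12.4 CPM in shAtoh8 livers and 15.6 to 36.9 CPM in shNC livers (edgeR adjusted p = 0.140), and the folate receptor gene Folr2 higher, at 9.52 to 10.9 CPM in shAtoh8 livers and 5.70 to 7.88 CPM in shNC livers (edgeR adjusted p = 0.301).

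Monocyte markers, of which S100a4 had 0 reads in the count files but values above 0 in part of the FPKM table, summed to 10.2 to 14.9 CPM in shAtoh8 livers and 3.02 to 6.29 CPM in shNC livers. Of 9 such genes 6 were tested with all libraries and 0 passed. Without shNC replicate 1, 7 were tested and 6 rose, where 16.5% of all genes were called higher and 16.1% lower. Plac8, expressed by monocytes, stood at 4.29, 4.34 and 7.69 CPM in shAtoh8 livers and 2.71, 1.92 and 2.24 CPM in shNC livers (edgeR adjusted p = 0.157). Vcan, which encodes versican, stood at 0.581 to 0.955 CPM in shAtoh8 livers and 0.0974 to 0.287 CPM in shNC livers, where it had 3 to 10 reads (edgeR adjusted p = 0.154). Lymphocyte markers summed to less than 1 CPM in every library and neutrophil markers to 1.91 to 2.40 CPM in shAtoh8 livers and 0.649 to 2.62 CPM in shNC livers, with Ly6g at 0 reads throughout and the 1 tested gene, Csf3r, at an edgeR adjusted p of 0.513. Dendritic cell markers summed to 6.66 to 10.2 CPM in shAtoh8 livers and 4.29 to 7.08 CPM in shNC livers, and 0 of 2 tested passed (Zbtb46 and Clec9a, edgeR adjusted p = 0.334 and 0.945). Bile duct cell markers summed to 20.5 to 29.1 CPM in shAtoh8 livers and 12.1 to 15.1 CPM in shNC livers. Prom1, a membrane protein of duct and progenitor cells, was the 1 gene of this list that rose, at 14.2, 10.6 and 12.5 CPM in shAtoh8 livers and 2.62, 1.32 and 0.909 CPM in shNC livers (log2 fold change 2.95, SE 0.42, edgeR adjusted p = 0.0344), while Krt19 stayed at or under 0.17 CPM in every library. Of the 4 tested genes of this list only Prom1 had groups that did not overlap, and it was the largest part of the sums in shAtoh8 livers. Of the stellate cell markers, 1 of 10 rose, the smooth muscle actin gene Acta2 (edgeR adjusted p = 0.0282), which had 52, 36 and 47 reads in shAtoh8 livers and 1, 1 and 0 reads in shNC livers. With all libraries 0.741% of all genes were called higher. The stellate list held 0 calls on the FPKM scale with its filter and with a block for the replicate number. A filter of 1 CPM in 3 libraries removed Acta2, and 0 of the 9 genes then tested passed. The list held 2 calls with no low-count filter (247 of 22964 genes) and 4 by DESeq2 (6.78% of all genes). It held 3 with the GC and length offset (3.77% of all genes) and 7 by limma-voom (37%). It held 0 calls without any single library other than shNC replicate 1. Without that replicate 6 of 10 rose, where 16.5% of all genes were called higher and 16.1% lower. The call on Prom1 was likewise lost in the 5 fits that left out 1 library other than shNC replicate 1. The whole list of stellate markers had sums of 325 to 466 CPM in shAtoh8 livers and 195 to 254 CPM in shNC livers. Endothelial and hepatocyte markers, 8 each, held 0 calls with all libraries. The endothelial ones had sums of 158 to 217 CPM in shAtoh8 livers and 174 to 203 CPM in shNC livers. The hepatocyte ones had sums of 99336 to 113708 CPM in shAtoh8 livers and 98530 to 136239 CPM in shNC livers. The smallest edgeR adjusted p with all libraries were 0.613 and 0.630 for the endothelial list (Cdh5 and Pecam1) and 0.272 and 0.424 for the hepatocyte list (Ttr and Cyp2e1). Without shNC replicate 1, 1 endothelial gene rose (Cdh5, edgeR adjusted p = 0.0234) and 1 hepatocyte gene fell (Ttr, edgeR adjusted p = 0.0485). Of all genes, 16.5% were called higher and 16.1% lower in that fit. The part of these cells in the marker differences was not tested.

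Promoter windows of RefSeq on GRCm38.p6, from 250 bases before to 50 after a gene's start, were matched for 9 of the 10 markers, all except Fabp5, with 2 starts for Mmp12. They were searched on both strands for the AP-1 motif TGACTCA, the E-box CACGTG, the palindrome TCACGTGA, which contains that E-box and lies at the core of the lysosomal gene element CLEAR, and the PU.1 motif AGGAAGT. AP-1 letters were in the windows of Gpnmb, Cd68 and Mmp12, 3 of 10 windows, against 5.20% of all 32851 windows. The E-box and the palindrome were in the window of Ctsd alone, against 7.15% and 0.974% of all windows, and AGGAAGT was in those of Lyz2 and Mmp12, against 9.35%. Gpnmb, Cd68 and Mmp12 are printed because they share the AP-1 letters and stood high in shNC replicate 1 and the shAtoh8 libraries, and Ctsd because it had another profile and another motif. Each runs 5′ to 3′ on the gene's strand, with motif letters in capitals, and a match is a description of the letters, not evidence of binding.
Gpnmb, chr6:49036268-49036532, plus strand, motif starting at base 9 of the transcript: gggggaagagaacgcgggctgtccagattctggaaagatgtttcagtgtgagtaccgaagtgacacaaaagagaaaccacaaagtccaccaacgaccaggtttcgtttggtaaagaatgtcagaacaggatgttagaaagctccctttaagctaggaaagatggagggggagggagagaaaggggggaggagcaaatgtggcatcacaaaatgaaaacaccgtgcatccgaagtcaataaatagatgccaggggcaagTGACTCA
Cd68, chr11:69666171-69666420, minus strand, motifs starting 149 and 24 bases before the start: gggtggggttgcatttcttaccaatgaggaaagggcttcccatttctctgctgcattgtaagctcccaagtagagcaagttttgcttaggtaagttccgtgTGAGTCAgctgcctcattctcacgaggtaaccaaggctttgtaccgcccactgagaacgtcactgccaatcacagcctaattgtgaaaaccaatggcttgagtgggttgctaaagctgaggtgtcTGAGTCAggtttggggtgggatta
Mmp12, chr9:7347124-7347373, plus strand, second of its starts, motif starting 44 bases before the start: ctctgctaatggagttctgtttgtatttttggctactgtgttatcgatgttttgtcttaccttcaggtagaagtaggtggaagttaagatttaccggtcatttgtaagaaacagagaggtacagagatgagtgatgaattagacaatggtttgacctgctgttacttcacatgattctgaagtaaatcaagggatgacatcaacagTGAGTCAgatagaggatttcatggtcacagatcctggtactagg
Ctsd, chr7:142387828-142388077, minus strand, motifs starting 245 and 99 bases before the start: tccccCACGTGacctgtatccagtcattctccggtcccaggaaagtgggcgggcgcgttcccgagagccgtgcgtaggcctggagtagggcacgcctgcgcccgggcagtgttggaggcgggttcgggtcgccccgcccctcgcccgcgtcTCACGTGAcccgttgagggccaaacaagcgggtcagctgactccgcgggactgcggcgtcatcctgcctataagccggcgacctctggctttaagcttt
The windows of Cd9, Trem2, Lgals3 and Cd63 held none of these letters. Yet Trem2 and Lgals3 also stood high in shNC replicate 1 and the shAtoh8 libraries. Whether the AP-1 letters go with that profile was not tested.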

How the data were processed

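RNA from 3 shAtoh8 and 3 shNC livers was analysed, with groups and replicate numbers taken from the titles. The authors deposited 1 file of raw read counts for every sample, plus FPKM values for all samples in a single table. Per the submitters' processing notes the build was GRCm38 and the tools included HISAT2 2.10, HTSeq, Trim Galore, FastQC and Cufflinks 2.2.1, without roles. No source used here states the strand setting, so a gene and its antisense partner cannot be told apart. Lines that name no gene (reads outside genes, 2.48% to 5.66% per library, and ambiguous reads, 4.69% to 6.87%) entered neither library sizes nor tests, and lines for multiply aligned reads were all 0. FPKM divides reads by transcript length and library size.

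Genes passing filterByExpr were TMM-scaled (factors 1.04 to 1.13 for shAtoh8, 0.852 to 0.965 for shNC) and tested with the edgeR 4.0.16 quasi-likelihood test in R 4.3.3 on group alone, two-sided, with Benjamini-Hochberg adjustment over all genes and a threshold of 0.05. The SE is the log2 fold change over the root of the F statistic. CPM uses TMM-scaled library sizes, with a prior count of 2 on the log2 scale. The test was tested on simulated data. With all 6 libraries it recovered 6% of 2-fold, 80% of 4-fold and 100% of 8-fold changes, with 9 false calls in 13507 genes. Without shNC replicate 1 it recovered 72% of 2-fold and 100% of 4-fold changes, with 7 false calls in 13976 genes. With all 6 libraries, most 2-fold changes were thus missed. No replicate pair agreed within sampling noise (chi-square per gene at least 50.2).

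Other settings tried were DESeq2 1.42.0, voom from limma 3.58.1 with quality weights, median-ratio scaling, dropping the low-count filter or setting it to 1 CPM in 3 libraries, limma on log2(FPKM + 1) with a filter of 0.5 FPKM in 3 libraries or none and on log2(FPKM + 0.1), a block for the replicate number, leaving out mitochondrial genes with the 20 most abundant ones, and leaving out single libraries. A GC and length offset was chosen after seeing the data. The markers and the 14 context lists were chosen with earlier results of these data known. All 10 markers are named, with the members of each list of smallest p (up to 4 that passed, otherwise up to 2), Atoh8, the nearest paralogs, Mitf, Tfeb and defining genes of other cells. Apoe, Ptprc, Cybb and Mertk are named because they went against most genes of their lists. Coordinates are from GENCODE M21 on GRCm38 and promoter sequences from RefSeq.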

Additional observations from a re-analysis of the deposited data

How the results depend on the processing

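For 0 markers called of 10, the count remained 0 with either change of the low-count filter, median-ratio scaling, each FPKM setting, the removal of abundant genes and the GC and length offset. DESeq2 called 1 (Cd63, with no adjusted p for Gpnmb), limma-voom 8, giving shNC replicate 1 a weight of 0.0835 against 1.16 to 2.53 for the others, where 18.7% of all genes were called higher and 18.2% lower. Leaving out 1 library in turn gave 0 to 8 called, the 8 without shNC replicate 1, and the offset without that library gave 8 as well (7 higher, 1 lower), where 15% of genes were called higher and 14.5% lower. Ctsd changed sign, to 0.26 by limma-voom, 0.28 without shNC replicate 1 and 0.064 with the offset and without that library, on the log2 scale, and leaving out 1 library in turn gave -0.30 to 0.28.

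Over all genes 119 were called, against 247 with no filter, 934 by DESeq2, 5088 by limma-voom, 47 on log2(FPKM + 1) with no filter, 35 with the replicate block, 518 with the offset, 4188 with the offset and without shNC replicate 1, and 0 to 4632 with 1 library left out. Same-numbered libraries did not deviate together in all pairs (correlations of deviations 0.25, -0.08 and 0.29), so the replicate numbers are not taken as pairs. With the replicate number as a block 0 markers were called, and Gpnmb had a log2 fold change of 1.55 (SE 0.63). Of 180 values for single markers under alternatives, 152 kept their direction and side of the threshold, 25 passed newly and 3 changed sign. The order of levels over all 6 libraries depends on the length used. Per union exon length of the annotation, Mmp12 ranked 9 of 10, against 6 by FPKM. In the same way Cd63 ranked 4 against 2, Cd68 5 against 7 and Gpnmb 7 against 9.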
